A study of Mus musculus with 6 samples.

Results

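The proteasome genes measured here were those whose symbol begins with Psma, Psmb, Psmc, Psmd, Psme, Psmf or Psmg followed by a digit. The rule took 50 of 19938 genes with a single symbol on the arrays, each read from the brightest of its probe sets. Of these, 48 encode core or cap subunits, activators, an inhibitor or assembly factors. The other 2, Psmc3ip and Psme3ip1, are named for proteins that bind a proteasome part and are neither subunits nor assembly factors, so they were kept apart. The arrays compared siMnSOD cells with siScramble cells, both derived from AML-12, a mouse hepatocyte line. siMnSOD cells stably carried a retroviral hairpin against MnSOD, the mitochondrial superoxide dismutase encoded by Sod2, that was designed for mild silencing. siScramble cells carried the same vector with a hairpin that recognises no gene, and both were selected with puromycin and otherwise untreated. Per group, 3 arrays were run on different frozen batches of cells. Whether a batch goes back to a transduction of its own is not stated, and p-values cover only the spread between these samples.

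The proteasome is the main protease of the cytosol and nucleus, and it degrades proteins that carry ubiquitin chains. Its hollow core is built of rings of alpha and beta subunits, of which Psmb5, Psmb6 and Psmb7 carry the proteolytic sites. A cap at either end recognises ubiquitin, removes it and unfolds the protein with a ring of ATPases. Cells under interferon replace the 3 catalytic subunits with Psmb8, Psmb9 and Psmb10, which makes the immunoproteasome. When proteasome activity falls short, the membrane-bound transcription factor encoded by Nfe2l1 is processed and raises transcription of subunit genes, also in liver.

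Sod2 itself had log2 intensities of 6.63, 6.92 and 5.71 on the siMnSOD arrays, against 7.95, 7.99 and 8.20 on the siScramble arrays. The groups did not overlap, and the log2 fold change was −1.63 (SE 0.30, adjusted p = 0.037 in limma, a linear model fitted over all genes). The call was lost without siMnSOD replicate 1 or 2 or siScramble replicate 1 or 2 (highest adjusted p = 0.133). Replicate 3 stood apart in both groups. Pearson r across probe sets was 0.992 between replicates 1 and 2 of siMnSOD and 0.993 between those of siScramble, while replicate 3 reached at most 0.985 and 0.976 with the others of its own group. The background level was set at a log2 intensity of 4.28, under which 95% of 1027 olfactory receptor genes fell, genes that hepatocytes should not express. Of 9 measured hepatocyte markers 7 lay above it, but Alb and Ttr, the albumin and transthyretin genes, did not. Summed intensity of the hepatocyte markers was 15564 to 17957 on siMnSOD arrays and 10974 to 15009 on siScramble arrays. That of 4 biliary markers was 3894 to 4181 on siMnSOD arrays and 1904 to 3292 on siScramble arrays. Of single markers in these lists, Hnf4a was called higher in siMnSOD cells, while the biliary marker Sox9 was called lower, against the direction of its list's sum. Their part in the results below was not tested.

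Across the 48 proteasome genes most differences were small and positive, and few passed the test. A total of 33 had a positive log2 fold change (siMnSOD minus siScramble), with a median of 0.20 and a range of −0.47 to 0.74, whereas 52.3% of all genes were positive, with a median of 0.01. Psmc3 and Psmd13 rose at an adjusted p under 0.05 in limma, and no proteasome gene fell. This is 2 of 48 genes (4.17%), against a background of 2.17% of all genes called higher and 1.58% called lower. Of all 19938 genes, however, 6816 lay under background in the mean of both groups, against 3 of the 48. With only probe sets above background tested, the same 2 genes were called higher, while 3.72% of the tested genes were. In the fit over all genes, 11 of the 48 were higher and 1 was lower at an unadjusted p under 0.05, against 8.61% and 8.06% of all genes. A fit with replicate number as blocking factor called the same genes, against a background of 4.02% higher and 3.12% lower. On 12 of the 48 genes (25%) every siMnSOD array exceeded every siScramble array, as on 11.1% of all genes, and on 1 every siMnSOD array was lower, as on 9.73% of all genes. Intensities are relative to the RNA on each array, so a change in RNA per cell and a change in the make-up of the RNA cannot be told apart.

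**Figure D1:**
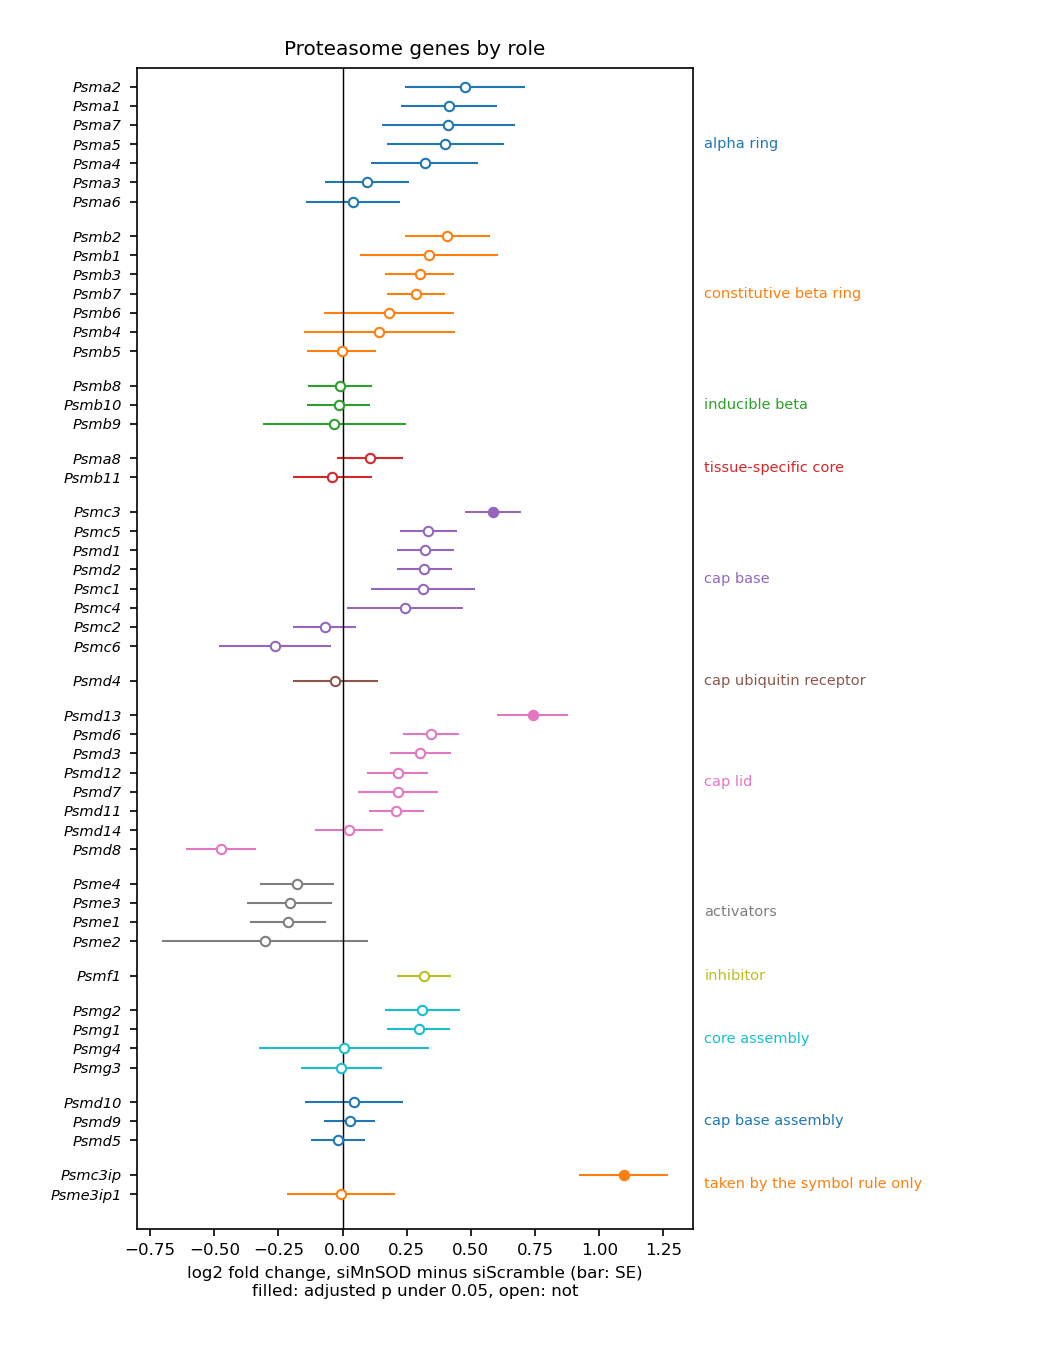
Log2 fold change (horizontal axis, siMnSOD minus siScramble, bar: SE of the fit over 3 arrays per group) of the 50 genes taken by the symbol rule, grouped by role and sorted within each group. Filled points (Psmc3, Psmd13 and Psmc3ip) passed the test, all 7 alpha ring genes lie above 0 and all 4 activators below it.

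The differences were not alike in the 3 replicate numbers. Between same-numbered arrays the median over the 48 genes was 0.12, 0.26 and 0.11 in replicates 1, 2 and 3. Among the 14 constitutive core genes, however, it was 0.38, 0.52 and 0.06. All 14 core genes were lower on siMnSOD replicate 3 than the mean of siMnSOD replicates 1 and 2, with a median of −0.58, and 11 of 14 were lower on siScramble replicate 3, with a median of −0.24. Over all genes the same medians were 0.08 in siMnSOD and 0.10 in siScramble cells. With only replicates 1 and 2 of both groups in the fit, 16 of the 48 genes were called higher (33.3%) and 3 lower (6.25%), against 11.8% and 9.69% of all genes. These were 5 of 7 alpha ring, 3 of 7 constitutive beta ring, 5 of 8 cap base and 2 of 8 lid genes and Psmf1 on the higher side, and Psmd8, Psme2 and Psme3 on the lower side. That fit rests on 4 arrays, and the spread it uses leaves out replicate 3.

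**Figure D2:**
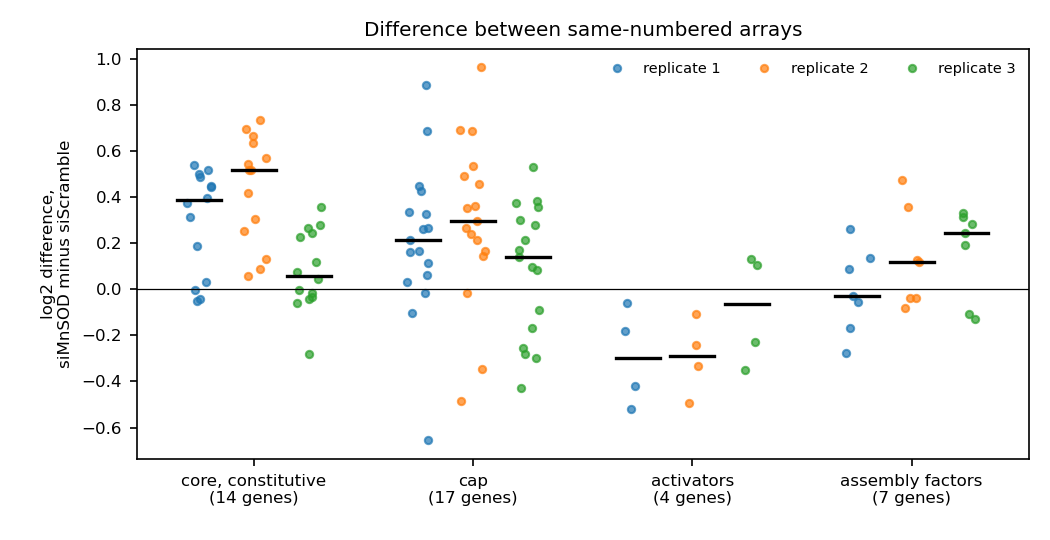
Log2 difference between the siMnSOD and siScramble arrays of the same replicate number (vertical axis) for each gene of 4 groups, with 1 point per gene and a black line at the median. Core medians were 0.38, 0.52 and 0.06 in replicates 1, 2 and 3, and activator medians were −0.30, −0.29 and −0.06.

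The 7 alpha ring genes, whose products form the outer rings of the core and gate its channel, were all positive, but none passed the test. Their log2 fold changes ranged from 0.04 (Psma6) to 0.48 (Psma2), with a median of 0.40. Psma2 had log2 intensities of 9.98, 10.08 and 9.34 in siMnSOD cells, against 9.54, 9.44 and 8.99 in siScramble cells (log2 fold change 0.48, SE 0.24, adjusted p = 0.414 in limma). Replicate 3 was the lowest array of either group, and the groups overlapped, although siMnSOD was higher within each number (0.44, 0.63 and 0.35). Psma1, which had the smallest p of the ring, gave 10.78, 10.79 and 10.21 in siMnSOD cells, against 10.28, 10.28 and 9.98 in siScramble cells (0.41, SE 0.19, adjusted p = 0.356). Psma4, Psma5 and Psma7 differed by 0.45 to 0.73 in replicates 1 and 2 and by −0.03 to −0.005 in replicate 3, while the sign of Psma3 turned (0.31, 0.25 and −0.28).

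The constitutive beta ring, which holds the proteolytic chamber, had 6 of 7 positive members, a median of 0.29 and no call. Psmb2, a subunit without a proteolytic site, had the largest value. It gave 9.11, 9.34 and 8.72 in siMnSOD cells and 8.63, 8.67 and 8.64 in siScramble cells (0.41, SE 0.17, adjusted p = 0.282 in limma). Its groups did not overlap, although the difference within replicate 3 was 0.07, against 0.48 and 0.67 in replicates 1 and 2. Psmb7, the trypsin-like catalytic subunit, gave 11.13, 11.17 and 10.91 in siMnSOD cells, against 10.74, 10.75 and 10.87 in siScramble cells (0.29, SE 0.11, adjusted p = 0.274), again without overlap. Psmb6, the caspase-like subunit, gave 10.25, 10.52 and 9.80 in siMnSOD cells, against 10.26, 10.21 and 9.55 in siScramble cells (0.18, SE 0.25, adjusted p = 0.963). Psmb5, the chymotrypsin-like subunit, was at 8.91, 8.94 and 8.62 in siMnSOD cells, against 8.95, 8.86 and 8.68 in siScramble cells. Its log2 fold change was −0.004 with a 95% interval of −0.32 to 0.31, and a change within that interval could not be told from none. Psmb1, Psmb3 and Psmb4 had 0.34, 0.30 and 0.14.

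The inducible subunits of the immunoproteasome showed no difference that passed the test, and none of the 3 had an unadjusted p under 0.05. Psmb8 read 3.77, 3.81 and 4.08 in siMnSOD cells, against 3.80, 3.89 and 4.003 in siScramble cells (−0.01, SE 0.13). All 6 arrays lie under background, where a change could not be seen. Psmb9 read 5.68, 5.41 and 6.31 in siMnSOD cells, against 5.61, 5.61 and 6.27 in siScramble cells (−0.03, SE 0.28). Replicate 3 was the highest array in both groups. Psmb10 read 6.12, 6.32 and 6.01 in siMnSOD cells, against 6.26, 6.18 and 6.05 in siScramble cells (−0.02, SE 0.12). Leukocytes carry much immunoproteasome. Of 8 leukocyte and macrophage markers, 5 (Ptprc, Adgre1, Itgam, Laptm5 and Tyrobp) were under background and 3 (Cd68, Csf1r and Cd14) were above it. The summed marker intensity was 319 to 360 on siMnSOD arrays and 303 to 332 on siScramble arrays. Psma8, a testis subunit (3.84, 4.19 and 4.17 in siMnSOD cells, against 3.95, 3.89 and 4.04 in siScramble cells), and Psmb11, a thymus subunit (4.04, 3.88 and 4.34 in siMnSOD cells, against 3.95, 4.20 and 4.23 in siScramble cells), were under background in the mean of both groups.

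To ask whether inducible subunits changed against the constitutive subunits they replace, log2 ratios were taken within each array for 3 pairs. The Psmb10 to Psmb7 log2 ratio was −5.01, −4.84 and −4.90 in siMnSOD cells, against −4.48, −4.57 and −4.81 in siScramble cells. All siMnSOD arrays were lower, and the difference of −0.30 (SE 0.11) had p = 0.1 in an exact two-sided permutation test, the smallest that 3 against 3 arrays allow, or 0.3 adjusted over the 3 pairs. Within replicates 1, 2 and 3 this ratio differed by −0.54, −0.28 and −0.09, so least in replicate 3. The log2 fold changes of its members were −0.02 for Psmb10 and 0.29 for Psmb7. The Psmb9 to Psmb6 ratio differed by −0.21 (SE 0.66, exact permutation p = 0.7). The third pair, Psmb8 and Psmb5, gives no reading of an exchange, because Psmb8 was under background on all 6 arrays. A ratio of probe sets shows unequal change and not the share of either subunit.

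The cap base, which holds the ATPase ring and the scaffold subunits Psmd1 and Psmd2, had 6 of 8 positive members, a median of 0.32 and 1 call. Psmc3, an ATPase of the ring, rose to log2 intensities of 9.41, 9.46 and 9.23 in siMnSOD cells, against 8.72, 8.77 and 8.85 in siScramble cells. The groups did not overlap, and the log2 fold change was 0.58 (SE 0.11, adjusted p = 0.039 in limma), or 1.5-fold. It was 0.69, 0.69 and 0.38 within replicates 1, 2 and 3. Psmc5, Psmd1 and Psmd2 did not overlap between groups either, at 0.33, 0.32 and 0.32, but their adjusted p-values were 0.182, 0.199 and 0.184. Psmd1 differed most evenly, by 0.34, 0.35 and 0.28. Psmc6, another ATPase, had the lowest value of the base at 9.97, 9.68 and 9.20 in siMnSOD cells, against 9.99, 10.03 and 9.63 in siScramble cells (−0.26, SE 0.22, adjusted p = 0.775). Psmc1, Psmc2 and Psmc4 had 0.31, −0.07 and 0.24. Psmd4, which binds ubiquitin chains at the joint of base and lid, gave 9.22, 9.25 and 8.72 in siMnSOD cells, against 9.19, 9.11 and 8.98 in siScramble cells (−0.03, SE 0.17).

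The lid, which removes ubiquitin from substrates, had both ends of the range of all 48 genes. Psmd13 rose to 9.47, 9.57 and 9.27 in siMnSOD cells, against 8.58, 8.61 and 8.90 in siScramble cells. Again no array of one group reached the other, and its log2 fold change was 0.74 (SE 0.14, adjusted p = 0.037 in limma), or 1.67-fold. Within replicates it was 0.89, 0.96 and 0.37. Psmd8 read 10.11, 10.22 and 10.08 in siMnSOD cells, against 10.77, 10.70 and 10.36 in siScramble cells (−0.47, SE 0.14, adjusted p = 0.125). Every siMnSOD array was below every siScramble array, and within replicates it differed by −0.66, −0.49 and −0.28. Without siScramble replicate 3 it was called lower (adjusted p = 0.016), and Psmc1 was called higher besides Psmc3 and Psmd13, while 5.61% of all genes were called in either direction alone. Psmd6 (0.34), Psmd3 (0.30) and Psmd11 (0.21) did not overlap between groups and did not pass. Psmd12 and Psmd7 had 0.21 each, and Psmd14, the deubiquitinase of the lid, had 0.03. The calls of Psmc3 and Psmd13 were both lost without siMnSOD replicate 1 or 2 or siScramble replicate 1 or 2 (highest adjusted p = 0.189 and 0.180), so 0 of the 48 genes were called in each of those 4 fits, in which 77 to 183 of all genes were. Psmc3 was also lost with arrays centred on their medians (adjusted p = 0.065), where 1.83% of all genes were called higher and 0.702% lower.

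**Figure D3:**
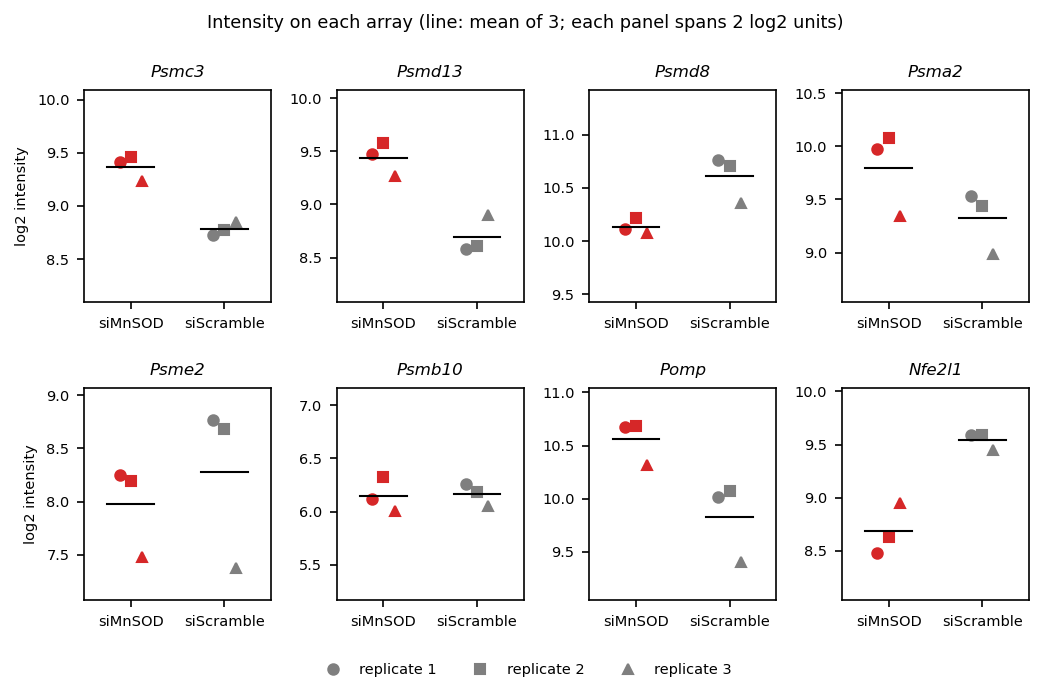
Log2 intensity (vertical axis, 2 log2 units in each panel) on the 3 siMnSOD arrays (red, left) and the 3 siScramble arrays (grey, right) for 8 genes. Circles, squares and triangles are replicates 1, 2 and 3, and the line is the mean. Psmc3, Psmd13, Psmd8, Pomp and Nfe2l1 do not overlap between groups, while replicate 3 of Psme2 is far below the others in both groups.

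All 4 activators, which dock on the core in place of the cap, were negative, and none passed the test or fell at an unadjusted p under 0.05. Their log2 fold changes ranged from −0.30 (Psme2) to −0.18 (Psme4), with a median of −0.21. Psme1 and Psme2 form the interferon-induced activator ring. Psme1, with the smallest p, gave 7.97, 8.04 and 8.21 in siMnSOD cells, against 8.15, 8.15 and 8.56 in siScramble cells (−0.21, SE 0.15, adjusted p = 0.674 in limma). Psme2 gave 8.25, 8.19 and 7.48 in siMnSOD cells, against 8.77, 8.69 and 7.38 in siScramble cells (−0.30, SE 0.40, adjusted p = 0.951). It was lower by 0.52 and 0.49 in replicates 1 and 2 and higher by 0.11 in replicate 3. Psme3, the nuclear member of the family, likewise differed by −0.42, −0.33 and 0.13. Psme4, a large single-chain activator, differed by −0.06, −0.24 and −0.23. Psmf1, whose product inhibits the core in vitro, gave 8.20, 8.38 and 8.29 in siMnSOD cells, against 7.93, 7.93 and 8.06 in siScramble cells, without overlap. Its value of 0.32 (SE 0.10) had an adjusted p of 0.177.

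Among the 7 assembly factors 5 were positive, the median was 0.03, and none was called. Psmg1 and Psmg2 act as a pair in forming the alpha ring. Psmg1 gave 8.25, 8.41 and 8.14 in siMnSOD cells, against 8.12, 7.94 and 7.86 in siScramble cells, without overlap (0.30, SE 0.12, adjusted p = 0.296 in limma). Psmg2 gave 8.06, 8.21 and 7.83 in siMnSOD cells, against 7.80, 7.85 and 7.52 in siScramble cells (0.31, SE 0.15, adjusted p = 0.385). Psmg3 and Psmg4, the other pair, had −0.01 (SE 0.16) and 0.01 (SE 0.33). For Psmg3 the arrays read 6.15, 6.45 and 6.20 in siMnSOD cells, against 6.32, 6.49 and 6.01 in siScramble cells. The chaperones of the cap base, Psmd5, Psmd9 and Psmd10, had −0.02, 0.03 and 0.04. Psmd5 read 8.83, 8.93 and 8.71 in siMnSOD cells, against 8.89, 8.81 and 8.82 in siScramble cells, Psmd9 read 7.96, 8.01 and 7.88 in siMnSOD cells, against 7.88, 7.88 and 8.01 in siScramble cells, and Psmd10 read 10.07, 10.02 and 9.75 in siMnSOD cells, against 10.10, 10.10 and 9.51 in siScramble cells. In all 3 the groups overlapped.

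The 2 other genes taken by the symbol rule differed from each other. Psmc3ip, whose product serves homologous recombination in meiosis, rose to 6.92, 7.15 and 6.50 in siMnSOD cells, against 5.74, 5.83 and 5.72 in siScramble cells. Its log2 fold change of 1.10 (SE 0.17, adjusted p = 0.023 in limma) was the largest of the 50. The call was lost without siMnSOD replicate 1 or 2 or siScramble replicate 1 or 2 (highest adjusted p = 0.097). Psme3ip1 read 7.54, 7.51 and 7.86 in siMnSOD cells, against 7.46, 7.39 and 8.09 in siScramble cells (−0.01, SE 0.21).

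Proteasome genes with other names and genes that serve the pathway were read from 5 lists, in which 34 of 46 genes had a probe set with a single symbol. None rose, 3 fell and 31 did not pass in limma, with a median of −0.08, while 3.75% of all genes were called in either direction. At an unadjusted p under 0.05, 1 was higher and 9 were lower, against 8.61% and 8.06% of all genes. All 7 measured members of the transcription factor list had negative log2 fold changes, with a median of −0.24, and Nfe2l1 and Maff fell. Between same-numbered arrays 0, 1 and 1 of the 7 were positive in replicates 1, 2 and 3. Nfe2l1 was at 8.48, 8.63 and 8.95 in siMnSOD cells, against 9.59, 9.59 and 9.45 in siScramble cells (−0.86, SE 0.14, adjusted p = 0.028), which is 55.3% of the control level. All siMnSOD arrays were below all siScramble arrays, and the within-replicate differences were −1.11, −0.96 and −0.50. Maff, a small MAF partner of Nfe2l1 and Nfe2l2, gave 6.09, 6.43 and 6.73 in siMnSOD cells, against 8.46, 8.54 and 7.35 in siScramble cells (−1.70, SE 0.34, adjusted p = 0.047, or 0.059 with the replicate number as a block). Mafk and Mafg had −0.95 and −0.24 (adjusted p = 0.146 and 0.548), and Nfe2l2 and Ngly1, which deglycosylates the Nfe2l1 product, −0.20 each. Within replicates 1, 2 and 3 Mafk differed by −1.44, −1.43 and 0.03 and Nfe2l2 by −0.15, 0.005 and −0.45.

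Zfand2a fell furthest in the list of deubiquitinases and ubiquitin receptors. Its product binds the cap and is induced by arsenite. It read 7.87, 8.04 and 7.64 in siMnSOD cells, against 9.28, 9.26 and 9.29 in siScramble cells (−1.43, SE 0.13, adjusted p = 0.0042 in limma), and it was called whichever 1 array was left out. Zfand5, a relative that activates proteasomes, had −0.50 (SE 0.15, adjusted p = 0.131), Uchl5, a deubiquitinase of the cap, 0.44 (SE 0.24) and Ubqln1, a shuttle receptor, −0.19 (SE 0.11). Among subunits and assembly factors with other names, Pomp, which matures the core, gave 10.68, 10.68 and 10.32 in siMnSOD cells, against 10.02, 10.07 and 9.41 in siScramble cells. They did not overlap, and its difference of 0.73 (SE 0.21) was not called (adjusted p = 0.123). It was called with the replicate number as a block (adjusted p = 0.024), with array weights (0.00196) and with only replicates 1 and 2 of both groups (0.0038). Those fits called 4.02%, 12.5% and 11.8% of all genes higher. With the last 2 settings 10 and 9 pathway genes were called lower, Ecpas, Akirin2 and Zfand5 among them, and 3 and 4 higher. They called 2188 and 1932 of all genes lower. Pomp was not called with arrays centred on their medians (adjusted p = 0.213), with all probe sets tested (0.183) or with any 1 array left out (0.077 to 0.392). Sem1, the smallest lid subunit, had 0.58 (SE 0.39), and Ecpas and Akirin2, which tether and import proteasomes, had −0.38 (SE 0.14) and −0.34 (SE 0.16). In the list of ubiquitin, activating enzymes and the VCP segregase, the 4 of smallest p were Uba6 (−0.59), Vcp (0.26), Nsfl1c (0.15) and Nploc4 (0.20), none of them called. Of 8 interferon-linked antigen processing genes none was called, and Tapbp (−0.34), B2m (−0.35), Erap1 (−0.36) and Tap2 (0.09) had the smallest p. The calls of Nfe2l1 and Maff were lost without siMnSOD replicate 1 or 2 or siScramble replicate 1 or 2 (highest adjusted p = 0.146 and 0.196), and that of Maff also without siMnSOD replicate 3. Both were lost, too, with arrays centred on their medians (adjusted p = 0.053 for Nfe2l1 and 0.083 for Maff) and with all probe sets tested (0.051 and 0.078), while Zfand2a was called in each of these fits.

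**Figure D4:**
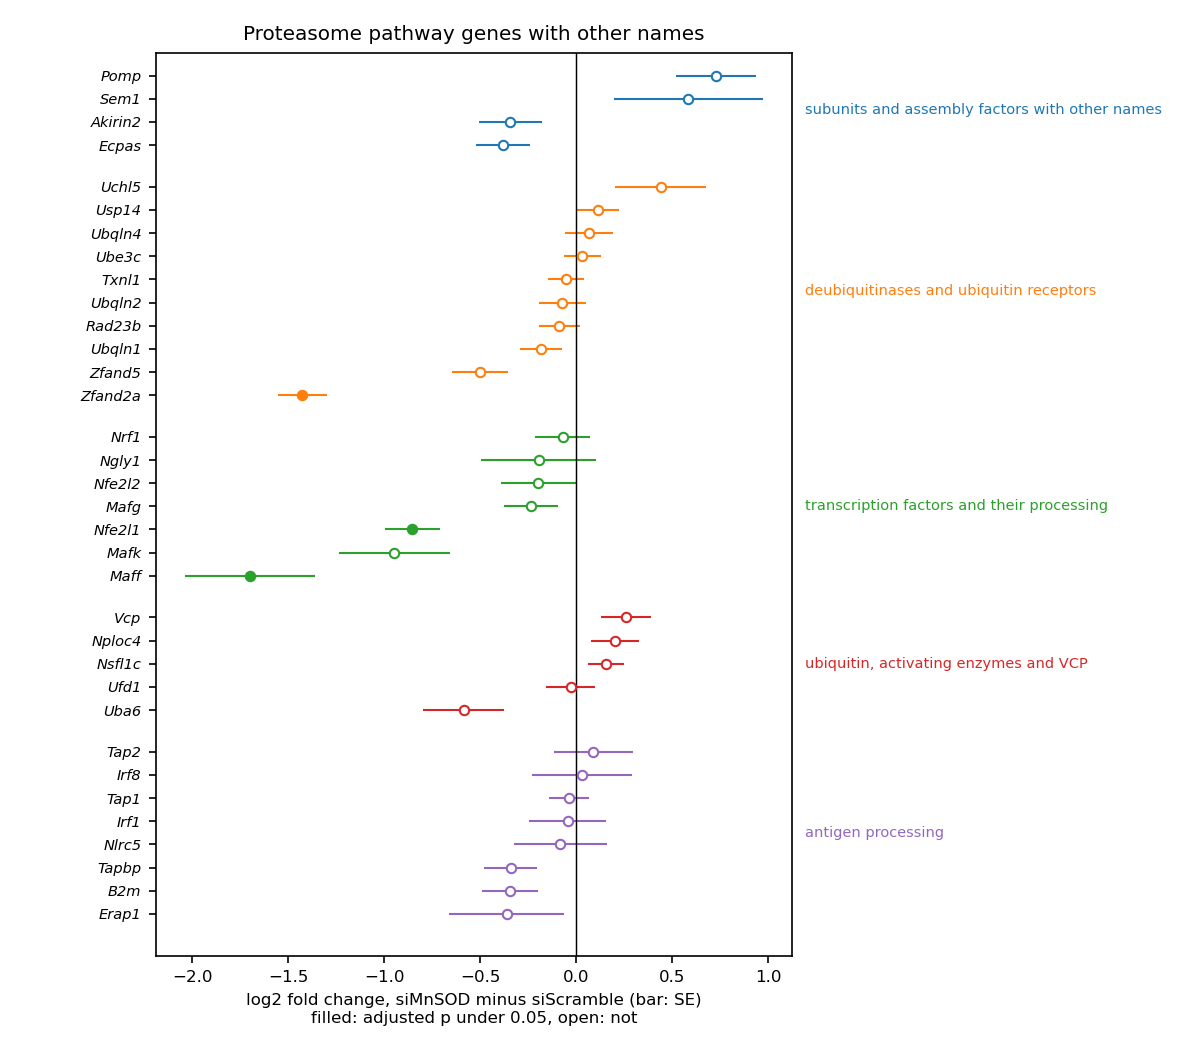
Log2 fold change (horizontal axis, siMnSOD minus siScramble, bar: SE of the fit over 3 arrays per group) of 34 pathway genes in 5 lists. Filled points passed the test: Zfand2a (−1.43), Nfe2l1 (−0.86) and Maff (−1.70), all below 0.

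The promoters of the proteasome genes were read for the site that NFE2L1 and NFE2L2 bind with small MAF proteins, the antioxidant response element. RefSeq sequence of GRCm38.p6 was matched for 40 of the 48 genes (43 start sites), and the 250 bases before each start were searched on both strands. Psma8, Psmb1, Psmb2, Psmb7, Psmc3, Psmd3, Psmd7 and Psmg2 were not matched. The core form TGACNNNGC stood in 11.6% of the 43 windows, against 10.2% of 32851 windows of all genes. It occurred once each in 5 genes, Psmb5, Psmb6, Psmc6, Psmd9 and Psmd12, whose log2 fold changes ran from −0.26 to 0.21. The 5 sites are shown with up to 15 flanking bases, in the direction of the motif and with the motif in capitals.
Psmb5, chr14:54618019-54618057, minus strand: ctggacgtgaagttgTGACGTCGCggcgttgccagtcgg
Psmb6, chr11:70525333-70525356, plus strand: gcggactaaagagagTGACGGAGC
Psmc6, chr14:45329582-45329620, minus strand: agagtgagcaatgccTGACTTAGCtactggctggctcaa
Psmd9, chr5:123228144-123228182, plus strand: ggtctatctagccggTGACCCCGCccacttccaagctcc
Psmd12, chr11:107479278-107479304, minus strand: tgaggggggcaaatgTGACACAGCaga

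The variant TGAGNNNGC stood in 23.3% of member windows, against 14.4% of all windows. TGACTCA, the AP-1 site, stood in 2.33% and 4.46%, CCAAT, which NF-Y binds, in 32.6% and 33.9%, and its longer form CCAATC in 16.3% and 14.6%. CCGGAAG, a form bound by ETS family factors, stood in 30.2% of member windows, against 6.91% of all windows. Member windows had a median GC content of 57.6%, against 52.4% for all windows, and how far this moves the shares was not tested. The 12 genes with CCGGAAG had a median log2 fold change of 0.13, against 0.07 for the 28 without it. A match is a run of letters and not a shown binding site. The site is shown, in capitals, for 4 of these genes, because CCGGAAG had the widest gap between the shares. These cap subunits were picked after their values were seen and all have positive log2 fold changes. Psmc6 (−0.26), Psmc2 (−0.07) and Psmd4 (−0.03), cap genes that also hold CCGGAAG, do not. Outside the cap CCGGAAG also stood in Psma6 (0.04), Psmg1 (0.30), Psme3 (−0.21) and Psme4 (−0.18), whose sites are not shown.
Psmc1, chr12:100110159-100110195, minus strand: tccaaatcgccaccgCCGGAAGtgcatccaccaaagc
Psmd2, chr16:20651611-20651647, minus strand: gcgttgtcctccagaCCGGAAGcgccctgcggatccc
Psmd6, chr14:14120969-14121005, minus strand: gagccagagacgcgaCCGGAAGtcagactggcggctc
Psmd11, chr11:80428589-80428614, minus strand: acacCCGGAAGacccgccctcgcgtt

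Whole upstream windows are given for Psmd12, which held TGACNNNGC, TGAGNNNGC and CCGGAAG, and for Psmd13, the called gene with a matched promoter. None of the motifs occurred in full in the Psmd13 window. It ends, however, in CCGGAAG without its last base, and bases past the start were not searched. Psmd12 and Psmd13 are lid genes and both lines read on the plus strand, with capitals for the motifs. TGACNNNGC and CCGGAAG of Psmd12 lie on the other strand and so appear as reverse complements.
Psmd12, chr11:107479278-107479527, plus strand: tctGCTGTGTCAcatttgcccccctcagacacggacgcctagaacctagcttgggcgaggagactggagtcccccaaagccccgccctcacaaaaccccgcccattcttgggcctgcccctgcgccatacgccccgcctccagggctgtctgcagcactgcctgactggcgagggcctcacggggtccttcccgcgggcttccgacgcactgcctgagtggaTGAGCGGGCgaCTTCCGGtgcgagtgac
Psmd13, chr7:140882144-140882393, plus strand: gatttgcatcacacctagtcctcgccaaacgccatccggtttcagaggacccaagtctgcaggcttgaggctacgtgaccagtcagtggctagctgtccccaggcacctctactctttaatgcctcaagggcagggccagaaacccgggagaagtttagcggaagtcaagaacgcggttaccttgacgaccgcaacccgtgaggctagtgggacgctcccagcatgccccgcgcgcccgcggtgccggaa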

How the data were processed

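Affymetrix Mouse Gene 1.0 ST arrays measured the RNA of 6 AML-12 samples. The deposited values are intensities on a linear scale for 35557 probe sets. The authors name RMA in the processing notes, whereas scaling with MAS5 is recorded per the labels' protocols and design; no version is stated.

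A single gene symbol belonged to 21789 probe sets, 1621 had several and 12147 had none. Entrez identifiers linked 21698 of the first kind to current RefSeq symbols. The brightest probe set stood for a gene, and low values were kept. The background level was chosen after seeing the data. On log2 intensities of 21559 rows, limma 3.58.1 (R 4.3.3; lmFit and eBayes with group as the only term) gave p-values, adjusted over all rows by Benjamini-Hochberg and called under 0.05. The code was tested on simulated data, and the 6 arrays limit the precision. As a check of pairing by the titles' replicate numbers, residuals of siMnSOD and siScramble samples were correlated over 19938 genes. They gave r = 0.376, 0.326 and 0.553 for numbers 1, 2 and 3. The main fit did not use the numbers, and a fit with them as a block was an alternative. Differences between same-numbered arrays are given as description only. The check separates number 3 only: siMnSOD 1 with siScramble 2 gave 0.451 and siMnSOD 2 with siScramble 1 gave 0.359. Further alternatives were centring, quantile normalization, a background filter, probe set rules, array weights, another prior and leaving out arrays.

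The members, lists, motifs and alternatives were chosen with earlier results of these data known. Per-array values are given for Sod2, called genes, the genes of largest, lowest and most significant difference in each role, catalytic subunits and, beyond that rule, a few genes chosen after their values were seen. Of each pathway list up to 4 genes of smallest p and every called gene were named, and Nfe2l2 and Ngly1 were added after their values were seen.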

Additional observations from a re-analysis of the deposited data

How the results depend on the processing

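The results rest on 6 arrays, and few calls survived every alternative. Calls of proteasome genes by the symbol rule (3 higher, 0 lower), of pathway genes (3) and of all genes (748) changed as follows. With the replicate number as a block, which changed no call of a proteasome gene, 1424 genes were called, and among the pathway genes Pomp gained a call and Maff lost its own. With only replicates 1 and 2 of both groups, 17 proteasome genes were higher and 3 lower, with 13 pathway genes and 4275 genes in all. Array weights, which were 0.25 for siMnSOD replicate 3 and 0.155 for siScramble replicate 3, gave 19 higher, 2 lower, 13 pathway genes and 4674 genes. Testing all probe sets gave 1 higher (Psmc3ip), 1 pathway gene, 432 genes and an adjusted p of 0.063 for Sod2 (−1.63). Centring arrays on their medians left 1 pathway gene and gave Sod2 −1.54 (adjusted p = 0.069). It moved the median of the proteasome genes to 0.28 and that of all genes to 0.09, and the share of higher genes among all calls to 72.3%, against 57.8%. Quantile normalization gave 1 lower call, Psmd8. The prior with trend and robust ended the call of Psmc3 (adjusted p = 0.053).

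Leaving out 1 array at a time gave 0 to 4 higher and 0 to 1 lower proteasome genes, 1 to 6 pathway genes and 77 to 2238 genes in all. Sod2 ran from −1.88 to −1.27 and the median of the proteasome genes from 0.13 to 0.29. Only a part of the genes was followed singly through the alternatives, so the lists of sign changes below are not complete. Uncalled genes near 0 changed sign in some of these fits, with ranges of −0.10 to 0.056 for Psmb10, −0.17 to 0.06 for Psmb11, −0.077 to 0.10 for Psmb5, −0.046 to 0.38 for Psmb6, −0.11 to 0.048 for Psmb8 and −0.29 to 0.19 for Psmb9. Likewise the ranges were −0.15 to 0.14 for Psmd10, −0.12 to 0.14 for Psmd4, −0.070 to 0.040 for Psmd5, −0.0020 to 0.070 for Psmd9, −0.14 to 0.22 for Psme3ip1, −0.14 to 0.10 for Psmg3 and −0.12 to 0.23 for Tap2. Signs also changed after centring for Psmb10 (0.069), Psmb11 (0.045), Psmb5 (0.081), Psmb8 (0.075), Psmb9 (0.053), Psmd4 (0.057), Psmd5 (0.068), Psme3ip1 (0.078) and Psmg3 (0.080), and after quantile normalization for Psmb10 (0.0096), Psmb5 (0.00035), Psmb8 (0.019), Psmb9 (0.029) and Psmg3 (0.029). With array weights this held for Psmb5 (0.0063), Psmd10 (−0.052), Psmd4 (0.055), Psmd5 (0.0074), Psme3ip1 (0.11) and Tap2 (−0.0096), and with replicates 1 and 2 only for Psmb10 (0.00037), Psmb5 (0.024), Psmd10 (−0.055), Psmd4 (0.086), Psmd5 (0.029), Psme3ip1 (0.10) and Tap2 (−0.021). Psma6, Psmb4, Psmc2 and Psmg4 were among the genes not followed singly, and their signs are not to be taken as stable. Psmg4 had 0.006 in the main fit and −0.16 with replicates 1 and 2 only. Among subunit, regulator and assembly genes, positive log2 fold changes numbered 33 in the main fit and 42 after centring. The cause of these changes was not tested. In the catalytic pairs, the Psmb10 to Psmb7 ratio kept its sign whichever array was left out (−0.40 to −0.23), and the other 2 pairs did not (−0.20 to 0.12 for Psmb8 to Psmb5, with Psmb8 under background, −0.67 to 0.23 for Psmb9 to Psmb6).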

Other observations

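Proteasome genes have processed copies elsewhere in the genome, and 5 members were read by more than 1 probe set. The sign was the same in all probe sets of each. The 3 of Psma3 had log2 fold changes of 0.09, 0.11 and 0.10, the 2 of Psma5 0.40 and 0.51, those of Psmb3 0.30 and 0.23, those of Psmc1 0.31 and 0.34, and those of Psmd2 0.32 and 0.26. None passed when all probe sets were tested in limma.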
